A study of Rattus norvegicus with 6 samples.

Results

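The genes described here are 9 transcripts of transforming growth factor beta (TGF-beta) signaling and of the epithelial-mesenchymal transition (EMT). They were chosen by name, with earlier results of these data known: Dab2, Fam3c, Tgfb1, Tgfbr1, Tgfbr2, Smad2, Smad3, Smad7 and Skil. Their symbols matched 10 of the 20609 rows of the deposited count table, because Tgfbr1 stands there under 2 identifiers. All 9 genes had enough counts in at least 1 of their rows to enter the test, among 12624 genes tested. The second Tgfbr1 row (ENSRNOG00000050760) held between 0 and 2 counts per library and was left out by the filter.

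TGF-beta ligands bring together a pair of receptor kinases, which phosphorylate SMAD2 and SMAD3. These join SMAD4, enter the nucleus and switch on target genes, among them genes whose products damp the pathway. PCBP-1, also known as hnRNP E1, binds C-rich RNA, and in epithelial cells it is known to hold the mRNAs of Dab2 and Fam3c in an untranslated state until TGF-beta signaling releases them. That control acts on translation, and the counts of RNA-seq measure mRNA, not translation.

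The libraries came from rat PC12 cells, a line derived from a pheochromocytoma, a tumor of the adrenal medulla. For 3 libraries the cells had received a control plasmid, whose contents are not described, and for 3 a plasmid for EGFP-tagged PCBP-1 by lipid transfection (PCBP1-OE). The paper's introduction calls the overexpression stable, while its methods describe cells harvested after transfection, for RT-qPCR. The paper does not state how long after transfection the sequenced cells were collected. Poly-A RNA was sequenced, with totals of 19730209 to 22315623 counts on genes per library. No row was matched to the Pcbp1 gene, so its overexpression was not checked here. The paper reports higher PCBP-1 mRNA by RT-qPCR and higher protein by western blot in PCBP1-OE. The labels do not say whether the 3 libraries of a group came from separate cultures, so p-values measure the spread between these libraries.

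The labelled cell type was checked against marker genes. Of 8 chromaffin markers 7 were matched, and their summed level was 8.72 to 9.92 CPM (counts scaled to library size) in controls and 8.71 to 10.3 CPM in PCBP1-OE. Most of it came from Th, tyrosine hydroxylase, at 7.95 ± 0.846 CPM in controls (SD, n = 3), while Chga, Chgb, Dbh, Ddc and Phox2a had too few counts for a test. The near absence of these defining genes of chromaffin cells goes against the label, and the cells are called by their label here without a further name. The 4 Schwann and glial markers summed to 613 to 657 CPM in controls and 581 to 600 CPM in PCBP1-OE, and the 5 matched fibroblast markers to 255 to 258 and 231 to 241 CPM. The 5 matched leukocyte markers summed to 40.6 to 46.6 and 34.9 to 40.4 CPM, and the 3 matched endothelial markers to 4.07 to 5.62 and 4.95 to 5.90 CPM. No matched marker was at 0 in every library, and none of these marker genes passed the test. The glial, fibroblast and leukocyte sums were lower in all 3 PCBP1-OE libraries than in all 3 controls, and their part in the results was not tested. Most of the leukocyte sum came from Cd14, at 39.9 CPM in controls and 34.5 CPM in PCBP1-OE on average. Ptprc, Csf1r and Itgam had too few counts for a test. Most of the fibroblast sum came from Pdgfra (223 and 203 CPM). Pdgfrb (28.3 and 29.6 CPM) and Col1a1 (3.16 and 3.38 CPM) went the other way. The glial sum came mostly from Sox10 and S100b. The sums thus rest on few genes and are not read as shares of cell types. In bulk RNA, fewer cells of a type and less RNA per cell cannot be told apart.

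Levels are given as CPM, counts per library size scaled by the TMM method, which adjusts each library for its composition. CPM is not divided by gene length, so levels of different genes are not compared. A gene was called when edgeR's quasi-likelihood test gave a Benjamini-Hochberg adjusted p of 0.05 or less over all genes tested, at any fold change. Fold changes are PCBP1-OE over control, and SE is the standard error of the log2 fold change.

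Of the 9 genes, 2 were called: Skil, a transcriptional brake on SMAD proteins, was 1.31-fold higher, and Tgfb1, the ligand, fell to 0.889-fold of the control level. Over all genes tested, 1193 (9.45%) were called, 562 higher (4.45%) and 631 lower (5%). Under upper-quartile scaling the split was 655 higher and 427 lower, and with cyclic loess between libraries 595 and 368. None of the 9 changed by 2-fold or more, and over all genes tested only 24 of 12624 were called with such a change. The median log2 fold change of the 9 was 0.055, against 0.0029 over all genes tested. The 3 libraries of a group lay apart from the 3 of the other for Tgfb1, Smad7 and Skil, or 3 of 9, where 30.6% of all tested genes had groups that did not overlap. The mRNAs of Dab2 and Fam3c, the known targets of translational silencing, were not called. Neither call held in 5 of the 6 fits that left out 1 library.

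**Figure D1:**
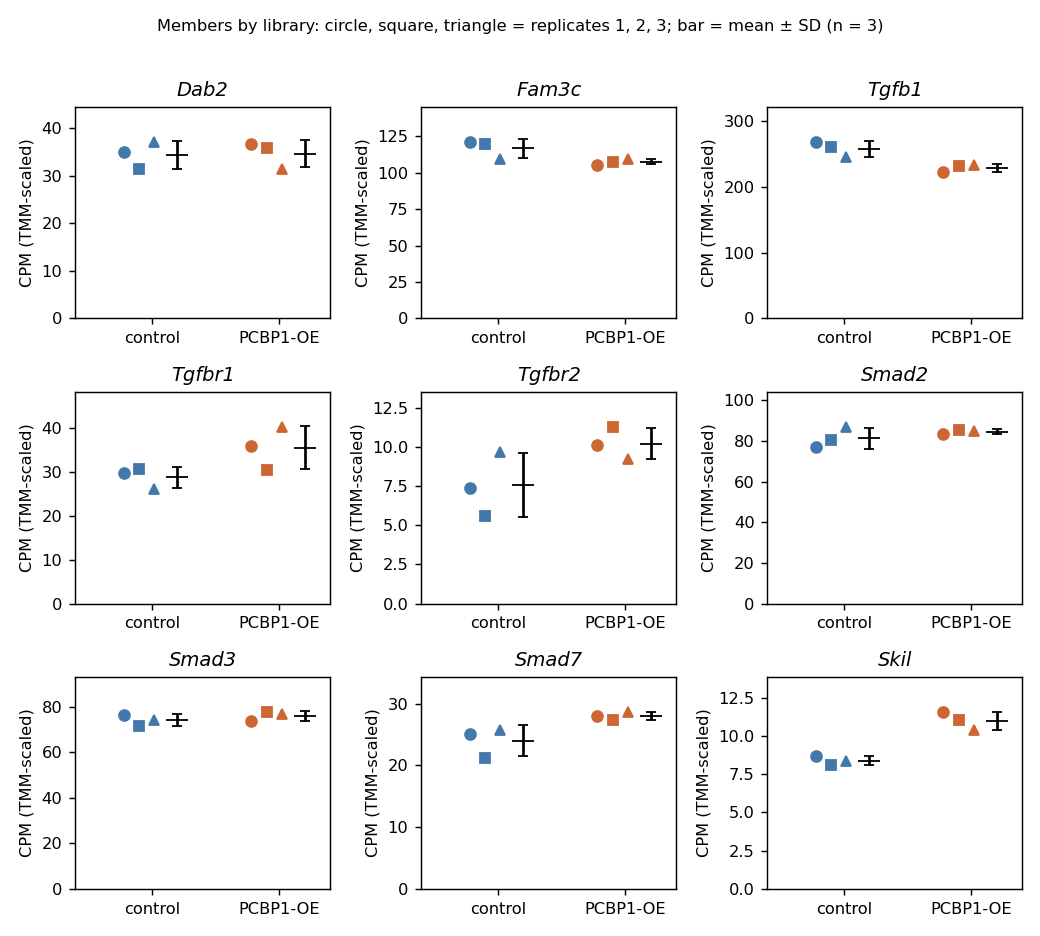
Level of each of the 9 genes in CPM (TMM-scaled, vertical axis from 0) in the 3 control libraries (blue) and the 3 PCBP1-OE libraries (orange), with circles, squares and triangles for replicates 1, 2 and 3 and bars for the mean ± SD (n = 3). The groups are apart for Tgfb1, Smad7 and Skil, and they overlap for the other 6 genes.

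Promoter sequence is shown for the called genes, Skil and Tgfb1, because Skil is known as a direct SMAD target while Tgfb1 moved the other way. The windows run from 250 bases before to 50 bases after a RefSeq transcript start on the assembly GRCr8, and are printed 5′ to 3′ on the strand of the gene. Capitals mark the pentamer CAGAC, a known SMAD-binding sequence, on either strand (GTCTG on the other).

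Skil promoter (GRCr8, minus strand, chr2:114203523-114203822): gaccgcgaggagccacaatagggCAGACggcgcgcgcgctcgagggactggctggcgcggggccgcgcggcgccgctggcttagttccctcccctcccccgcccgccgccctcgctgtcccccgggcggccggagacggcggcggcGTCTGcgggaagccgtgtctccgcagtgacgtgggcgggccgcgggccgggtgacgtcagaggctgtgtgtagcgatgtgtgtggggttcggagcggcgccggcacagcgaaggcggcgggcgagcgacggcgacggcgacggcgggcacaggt
Tgfb1 promoter (GRCr8, plus strand, chr1:90324062-90324361): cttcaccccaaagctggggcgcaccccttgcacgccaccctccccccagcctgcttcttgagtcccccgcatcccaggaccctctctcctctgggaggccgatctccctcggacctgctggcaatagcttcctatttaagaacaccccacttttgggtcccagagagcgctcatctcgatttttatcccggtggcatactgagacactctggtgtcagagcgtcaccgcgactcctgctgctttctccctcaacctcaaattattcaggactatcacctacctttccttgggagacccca

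The Skil window holds the pentamer at 227 bases and, on the other strand, at 104 bases before the start, and the Tgfb1 window holds none. The pentamer was found in 50.1% of all 33469 promoter windows of this length. Among the 9 genes it was found for Skil and Dab2, although the Dab2 window starts well inside the gene. The palindrome GTCTAGAC, an 8-base SMAD site that does not contain the pentamer, was in 0.197% of the windows and in none of those of the 9 genes. These matches are a description of the letters and were not tested for binding.

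Among the silenced transcripts, Dab2 encodes an endocytic adaptor that binds receptors of the TGF-beta family. Dab2 (ENSRNOG00000028930, chromosome 2) was at 34.9, 31.3 and 37.1 CPM in control replicates 1, 2 and 3 and at 36.6, 35.8 and 31.4 CPM in the PCBP1-OE replicates. The groups overlapped over nearly their whole range. The difference was 0.0085 on the log2 scale (SE 0.080, adjusted p = 0.956), with a 95% interval of 0.892-fold to 1.13-fold. The sign of this value turned to -0.050 without control replicate 2, to -0.035 without PCBP1-OE replicate 1 and to -0.016 without PCBP1-OE replicate 2.

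Fam3c encodes a secreted cytokine-like protein, also called ILEI, known for driving EMT. Fam3c (ENSRNOG00000060349, chromosome 4) was at 121, 120 and 109 CPM in controls and at 106, 108 and 109 CPM in PCBP1-OE. Control replicates 1 and 2 were above all PCBP1-OE libraries, and control replicate 3 lay within them. The difference of -0.12 on the log2 scale (SE 0.049, adjusted p = 0.134) did not pass the test, and its interval was 0.857-fold to 0.992-fold. It was -0.16 and passed once control replicate 3 was left out (adjusted p = 0.0161), and it did not pass with any of the other 5 libraries left out.

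The genes whose log2 CPM over the 6 libraries was most correlated with Dab2 were Slc38a6 (Pearson's r = 0.992), Slc39a9 (0.982) and Nfkbie (0.981). For Fam3c they included Ybx3 (0.996) and Mrps16 (0.996). Over 0.95 were 18 genes for Dab2 and 294 genes for Fam3c. These correlations over 6 points share the libraries and their depth and are a description.

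Tgfb1 encodes the ligand that gives the pathway its name. Tgfb1 (ENSRNOG00000020652, chromosome 1) was at 268, 260 and 245 CPM in controls and at 222, 232 and 233 CPM in PCBP1-OE. Every control library was above every PCBP1-OE library. The level fell by 0.17 on the log2 scale (SE 0.047, adjusted p = 0.0409, edgeR's quasi-likelihood test), an interval of 0.829-fold to 0.953-fold. With 1 library left out it passed in 1 of 6 fits, without control replicate 3 (adjusted p = 0.00458). It did not pass without control replicates 1 (0.191) or 2 (0.190), or without PCBP1-OE replicates 1 (0.180), 2 (0.114) or 3 (0.0849). Under upper-quartile scaling its adjusted p was 0.0582, and with cyclic loess between libraries, an alternative chosen after seeing the data, 0.0959, with log2 fold changes of -0.15 and -0.12.

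The receptors were measured higher in PCBP1-OE on average, and neither was called. Tgfbr1, the type I receptor kinase that phosphorylates SMAD2 and SMAD3 (ENSRNOG00000007036, chromosome 5), was at 29.8, 30.6 and 26.1 CPM in controls and at 35.9, 30.5 and 40.2 CPM in PCBP1-OE. PCBP1-OE replicate 2 lay just under control replicate 2, so that the groups overlapped. The difference of 0.30 on the log2 scale was not called (SE 0.096, adjusted p = 0.0636). DESeq2 gave an adjusted p of 0.0339, and edgeR with no filter on low counts gave 0.00119. With 1 library left out it passed in 0 of 6 fits (adjusted p = 0.0551 to 0.187).

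Tgfbr2, the type II receptor that binds the ligand and activates the type I receptor (ENSRNOG00000013265, chromosome 8), was at 7.34, 5.61 and 9.68 CPM in controls and at 10.1, 11.3 and 9.24 CPM in PCBP1-OE. Control replicate 3 was above PCBP1-OE replicate 3, and the 3 controls were spread widely. The difference was 0.43 on the log2 scale (SE 0.17, adjusted p = 0.116), with an interval of 1.05-fold to 1.74-fold. It was 0.66 without control replicate 3 (adjusted p = 0.00630) and 0.26 without control replicate 2 (0.375), and passed with no other library left out. With no filter on low counts it passed, with an adjusted p of 0.0226.

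Within each library the ratio of Tgfbr1 to Tgfbr2 counts does not depend on library scaling. The control libraries gave 4.06, 5.46 and 2.70 and the PCBP1-OE libraries 3.55, 2.71 and 4.35, so the PCBP1-OE values lay within the control range. The means were 4.07 ± 1.38 and 3.54 ± 0.820 (n = 3 each, SD; two-sided exact permutation test on log2 ratios, p = 0.8, adjusted over the 2 ratios compared 0.9), where 0.1 is the smallest p that 3 against 3 allow.

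Smad2 and Smad3, the signal carriers, differed little between the groups. Smad2 (ENSRNOG00000018140, chromosome 18) was at 76.8, 80.3 and 86.7 CPM in controls and at 83.4, 85.5 and 84.6 CPM in PCBP1-OE, all 3 of which lay inside the control range. Smad3 (ENSRNOG00000008620, chromosome 8) was at 76.6, 71.3 and 74.0 CPM in controls and at 73.6, 77.5 and 76.6 CPM in PCBP1-OE. Their log2 fold changes of 0.055 (SE 0.051, adjusted p = 0.515) and 0.037 (SE 0.048, adjusted p = 0.651) did not pass the test. The intervals were 0.962-fold to 1.12-fold for Smad2 and 0.955-fold to 1.10-fold for Smad3.

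For the ratio of Smad2 to Smad3 counts the control libraries gave 1.00, 1.13 and 1.17 and the PCBP1-OE libraries 1.13, 1.10 and 1.10. The groups overlapped, with means of 1.10 ± 0.0878 and 1.11 ± 0.0168 (n = 3 each, SD; two-sided exact permutation test on log2 ratios, p = 0.9, adjusted over the 2 ratios 0.9).

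Smad7 and Skil encode inhibitors that the pathway itself induces. Smad7, the inhibitory SMAD that blocks the type I receptor (ENSRNOG00000018359, chromosome 18), was at 25.1, 21.2 and 25.8 CPM in controls and at 28.0, 27.3 and 28.6 CPM in PCBP1-OE. The groups did not overlap, and control replicate 2 was the lowest library. The difference of 0.22 on the log2 scale (SE 0.084, adjusted p = 0.108) was not called, with an interval of 1.03-fold to 1.32-fold. It was 0.28 and passed without control replicate 3 (adjusted p = 0.0293), and without control replicate 2 it was 0.14 (0.340).

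Skil, also called SnoN, is a corepressor that binds SMAD2, SMAD3 and SMAD4. Skil (ENSRNOG00000009899, chromosome 2) was at 8.67, 8.10 and 8.38 CPM in controls, from 170, 169 and 188 counts, and at 11.5, 11.1 and 10.4 CPM in PCBP1-OE, from 254, 223 and 203 counts. The control libraries lay close together and every PCBP1-OE library was above them. The level rose by 0.39 log2 units (SE 0.11, adjusted p = 0.0425, edgeR's quasi-likelihood test), an interval of 1.11-fold to 1.54-fold. With 1 library left out the log2 fold change stayed between 0.35 and 0.44. It passed in 1 of these 6 fits, without control replicate 3 (adjusted p = 0.0380), and did not pass without control replicates 1 (0.10) or 2 (0.164), or without PCBP1-OE replicates 1 (0.164), 2 (0.131) or 3 (0.0668). With cyclic loess between libraries the rise was 0.34, close to the 0.39 without it, and the adjusted p was 0.0677.

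**Figure D2:**
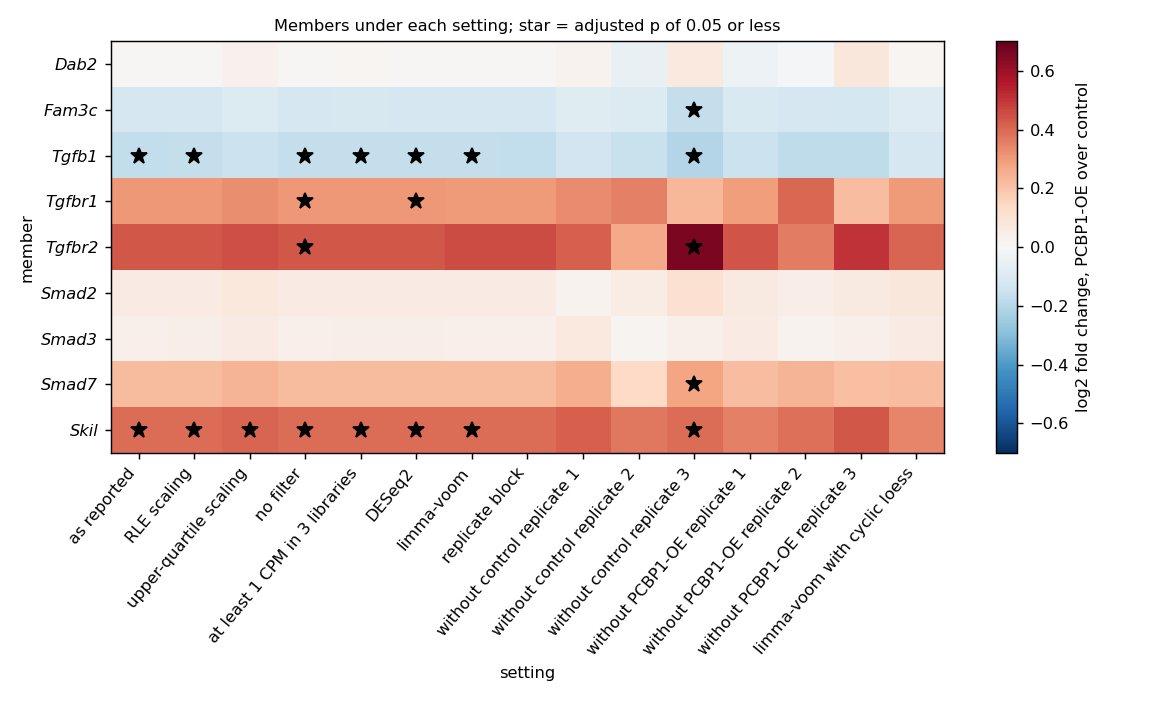
Log2 fold change of each of the 9 genes (rows) in the analysis as reported and in 14 alternative settings (columns), on a color scale from blue (lower in PCBP1-OE) to red (higher), with a star where the adjusted p was 0.05 or less. Skil has a star in 7 and Tgfb1 in 6 of the 14 alternatives, and the sign was kept in all 14 for every gene but Dab2, which kept it in 11.

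The rest of the pathway was read from 9 lists of ligands, receptors, SMADs, brakes, targets, EMT genes, the BMP and activin branch and partners of the silencing. Of 125 symbols 121 were matched and 93 were tested. The test was passed by 14, of which 8 were higher and 6 lower, or 15.1% against 9.45% of all genes tested. The median log2 fold change of the 93 tested genes was 0.014. An unadjusted p under 0.05 was reached by 39 of the 93, and by 28.4% of all genes tested. The lists were chosen with earlier results of these data known, so neither share is read as a trait of the pathway. Leaving out control replicates 1, 2 and 3 in turn gave 2, 0 and 32 list genes called, and leaving out PCBP1-OE replicates 1, 2 and 3 gave 3, 2 and 9. Of all genes tested, 0.375% were called when control replicate 2 was left out and 22.3% when control replicate 3 was.

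**Figure D3:**
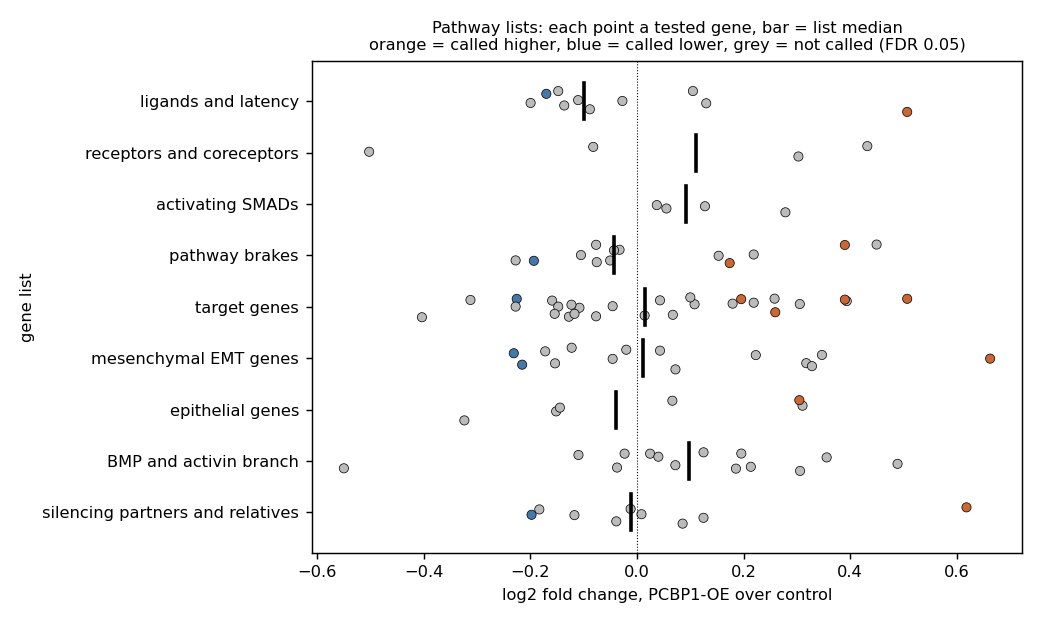
Log2 fold change (horizontal axis, PCBP1-OE over control) of the tested genes of the 9 lists, 1 point per gene, with orange for genes called higher, blue for genes called lower, grey for genes not called and a black bar at the list median. The list medians lie between -0.099 and 0.11.

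Among ligands and genes of ligand latency, 10 of 11 were tested, and besides Tgfb1 only Thbs1 was called (20%, against 9.45% of all genes tested). Thbs1, thrombospondin 1, an activator of latent TGF-beta and itself a target of the pathway, was at 47.6, 42.3 and 66.8 CPM in controls and at 77.9, 77.8 and 67.4 CPM in PCBP1-OE. Control replicate 3 lay just under PCBP1-OE replicate 3. Its rise was 0.51 in log2 units (SE 0.12, adjusted p = 0.0276), and DESeq2 did not call it. Of the 10 genes 3 had a positive and 7 a negative log2 fold change, with a median of -0.099. Ltbp1, which tethers latent ligand to the matrix, went from 473 ± 4.81 to 445 ± 8.09 CPM (n = 3 each, SD; adjusted p = 0.172, edgeR).

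Among 6 receptors and coreceptors 4 were tested and 0 called, with 2 at an unadjusted p under 0.05 in edgeR (Tgfbr1 and Tgfbr2, against 28.4% of all tested genes) and with 1 (Tgfbr1) called by DESeq2 and 0 by limma-voom. Tgfbr3 and Acvrl1 had too few counts for a test, at 0.0967 and 0.0903 CPM in controls on average. The coreceptor Cd109 was at 83.2 ± 1.81 and 78.6 ± 1.18 CPM (n = 3 each, SD; adjusted p = 0.243, edgeR). Of the SMADs that carry the signal and their partners, 4 were tested and 0 called by edgeR, DESeq2 or limma-voom, all 4 with a positive log2 fold change and 1 at an unadjusted p under 0.05, which was Smad4 with a log2 fold change of 0.28 (adjusted p = 0.0844); Smad4 was named after its value was seen.

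The brakes of the pathway were all tested, 13 of 13, and 3 were called (23.1%, against 9.45% of all genes tested). Smurf2, a ubiquitin ligase that targets the receptors and SMADs, went from 79.0 ± 1.07 to 89.1 ± 3.06 CPM (n = 3 each, SD), and rose by 0.17 log2 units (SE 0.045, adjusted p = 0.0348). Fkbp1a, a protein that binds the resting type I receptor, fell by 0.19 (SE 0.050, adjusted p = 0.0327), from 598 ± 28.2 to 523 ± 23.4 CPM (n = 3 each, SD). The other was Skil. The brakes held genes called in both directions, with 5 positive and 8 negative log2 fold changes and a median of -0.043. Pmepa1, which sequesters SMADs, was at 254 ± 31.2 and 217 ± 22.3 CPM (n = 3 each, SD), a difference of -0.23 (log2) that did not pass (adjusted p = 0.0952, edgeR). Pmepa1 passed without control replicate 3 (-0.31, adjusted p = 0.00624) and with no filter (0.000425), and was at -0.13 without control replicate 1.

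Of 31 target genes 27 were tested and 5 called (18.5%, against 9.45% of all genes tested), 4 higher and 1 lower. Besides Skil and Thbs1 the higher ones were the immediate early transcription factors Junb and Klf10. Junb, a subunit of AP-1, was at 235, 217 and 223 CPM in controls and 266, 273 and 269 CPM in PCBP1-OE, and rose by 0.26 log2 units (SE 0.044, adjusted p = 0.00862). Klf10, also known as TIEG1, rose by 0.20 (SE 0.047, adjusted p = 0.0257), from 94.5 ± 4.02 to 108 ± 2.93 CPM (n = 3 each, SD). Id3, a helix-loop-helix inhibitor that responds mainly to BMP, fell by 0.23 (SE 0.057, adjusted p = 0.0304), from 125 ± 8.01 to 107 ± 6.21 CPM (n = 3 each, SD).

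Other targets were not called by edgeR's test. Ctgf (Ccn2), a matricellular growth factor, was at 2569 ± 177 and 2301 ± 87.8 CPM (n = 3 each, SD), a difference of -0.16 (log2; adjusted p = 0.0744, edgeR). DESeq2 called Ctgf (0.0313), as did edgeR with no filter (0.00104) and without control replicate 3 (0.00547), while the difference was -0.099 without control replicate 1 and -0.033 with cyclic loess. Fn1, fibronectin, was at 834 ± 36.0 and 808 ± 33.1 CPM (n = 3 each, SD; adjusted p = 0.576, edgeR). The median of the 27 was 0.014, with 14 positive and 13 negative values, so the targets did not lie to 1 side.

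Of 18 mesenchymal genes 14 were tested and 3 called (21.4%, against 9.45% of all genes tested). Zeb2, a zinc finger repressor of E-cadherin, was at 16.5, 13.1 and 19.9 CPM in controls and at 24.4, 28.5 and 25.6 CPM in PCBP1-OE. It rose by 0.66 log2 units (SE 0.13, adjusted p = 0.0119), and no library of a group lay within the other. The groups did not overlap for 30.6% of all tested genes. S100a4, a calcium-binding protein of motile cells, fell by 0.23 (SE 0.061, adjusted p = 0.0354), from 2139 ± 188 to 1822 ± 81.7 CPM (n = 3 each, SD). Sparc, a collagen-binding matrix protein, fell by 0.22 (SE 0.042, adjusted p = 0.0131), from 433 ± 10.1 to 373 ± 8.51 CPM (n = 3 each, SD). Vim, vimentin, was at 5132 ± 151 and 4714 ± 32.1 CPM (n = 3 each, SD) and not called (adjusted p = 0.0760, edgeR). Vim passed by DESeq2 (0.0264), with no filter (0.00916) and without control replicate 3 (0.0154), and its difference turned from -0.12 to 0.027 with cyclic loess. The list was divided, with 7 positive and 7 negative values.

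Of 18 epithelial genes 15 were matched and 6 tested. Cdh1, E-cadherin, was at 0.130 CPM in controls on average and had too few counts for a test. Tjp1, a tight junction scaffold, was at 142, 141 and 150 CPM in controls and at 181, 173 and 180 CPM in PCBP1-OE. Its groups did not overlap, as for 30.6% of all tested genes. It was the only one of the 6 called (16.7%, against 9.45% of all genes tested), with a rise of 0.30 on the log2 scale (SE 0.045, adjusted p = 0.00445). Ctnnd1, p120 catenin, was at 162 ± 11.3 and 170 ± 5.43 CPM (n = 3 each, SD; adjusted p = 0.453, edgeR).

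In the BMP and activin branch 14 of 20 genes were tested and 0 called by edgeR's quasi-likelihood test, DESeq2 or limma-voom, with 3 at an unadjusted p under 0.05, where 28.4% of all tested genes had one. Smad5, a carrier of BMP signals, was at 34.8 ± 2.49 and 35.8 ± 3.12 CPM (n = 3 each, SD), and the type I receptor Acvr1 at 31.2 ± 1.60 and 30.7 ± 1.10 CPM. The list had 10 positive and 4 negative values and a median of 0.099.

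Partners and relatives of the silenced transcripts numbered 12, of which 9 were tested and 2 called (22.2%, against 9.45% of all genes tested). Akt2 is known to phosphorylate PCBP-1 and so to release the silenced mRNAs; it was not called (adjusted p = 0.621, edgeR), and its value was seen before it was named. Akt1 fell by 0.20 on the log2 scale (SE 0.042, adjusted p = 0.0178), from 373, 357 and 353 CPM to 320, 310 and 314 CPM. Eef1a1, the elongation factor that PCBP-1 holds on the silenced mRNAs, was at 2318 ± 126 and 2256 ± 36.0 CPM (n = 3 each, SD; adjusted p = 0.633, edgeR), and as it has many near-identical copies in the genome its counts are uncertain. Il6st, the signaling chain gp130 that pairs with the receptor LIFR, rose by 0.62 log2 units (SE 0.12, adjusted p = 0.0120), from 28.6, 24.8 and 36.6 CPM to 46.8, 51.0 and 40.6 CPM. Lifr, the partner chain known to bind the Fam3c product, had too few counts for a test.

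The calls of the 12 list genes beyond the 9 changed with single libraries. With 1 library left out, Junb and Tjp1 passed in 5 of 6 fits, each lost only without control replicate 2 (adjusted p = 0.0706 and 0.0664). Zeb2 passed in 3 of 6, lost without control replicates 1 and 2 and PCBP1-OE replicate 2 (at most 0.0666). Thbs1, Fkbp1a, Id3, S100a4, Sparc and Il6st passed in 2 of 6, without control replicate 3 or PCBP1-OE replicate 3, with adjusted p up to 0.137, 0.162, 0.186, 0.162, 0.0927 and 0.0706 in the others. Smurf2, Klf10 and Akt1 passed in 1 of 6, without control replicate 3, with adjusted p up to 0.138, 0.140 and 0.0990 in the others. With cyclic loess Fkbp1a and S100a4 did not pass either, at -0.12 and -0.11 on the log2 scale. All 12 kept their sign in all 14 alternatives.

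**Figure D4:**
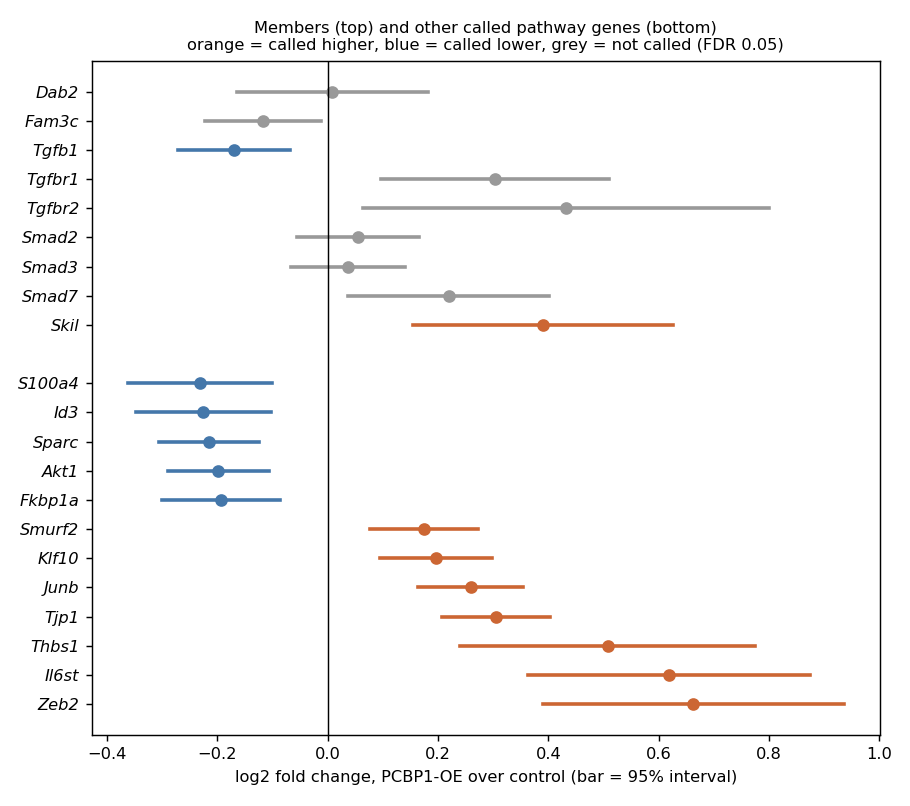
Log2 fold change (horizontal axis, PCBP1-OE over control) with its 95% interval for the 9 genes (upper part) and for the 12 other called genes of the lists (lower part), colored by call. The intervals are per gene and not adjusted for the number of genes tested. Those of Dab2, Smad2 and Smad3 include 0, and Zeb2 lies highest at 0.66. The other 6 of the 9 exclude 0, though only 2 were called. An unadjusted p under 0.05 in edgeR's test was reached by 28.4% of all genes tested.

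Over the whole table, fold changes varied with gene length. Tested genes in the shortest quintile by gene length had a median log2 fold change of -0.088 and those in the longest quintile 0.082, using RefSeq gene spans on GRCr8, which were found for 84.7% of the tested genes and for all 9. Of the shortest quintile 2.38% were called higher and 10.7% lower, and of the longest quintile 8.32% and 1.03%. In each library, the median of the longest quintile minus that of the shortest, on log2 CPM centered per gene, was -0.10, -0.14 and 0.013 for control replicates 1, 2 and 3 and 0.12, 0.11 and 0.027 for the PCBP1-OE replicates, so that all 3 PCBP1-OE libraries were above all 3 controls.

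Over quintiles by mean CPM, the median log2 fold change went from 0.11 in the lowest quintile to -0.050 in the highest. The share called lower went from 0.238% to 13.9%, and the share called higher from 0.990% to 4.95%. Tgfb1 and Fam3c were in the highest quintile by CPM and had the lowest log2 fold changes of the 9, while Skil and Tgfbr2, in the second lowest quintile with a median of 0.064, had the highest. These 4 were picked by their log2 fold changes, so their distance from the quintile medians cannot show whether level plays a part. The part of level was not tested. By length Tgfb1 was in the second shortest quintile, with a median of -0.034, Skil and Smad7 in the middle quintile, with -0.0020, and Tgfbr2 in the longest. Fam3c was in the second longest quintile, with a median of 0.038, and its own log2 fold change was -0.12. The part of gene length in the 2 calls was not tested. Cyclic loess, which adjusts each library along level, left Skil at 0.34 against 0.39 and Tgfb1 at -0.12 against -0.17 on the log2 scale.

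**Figure D5:**
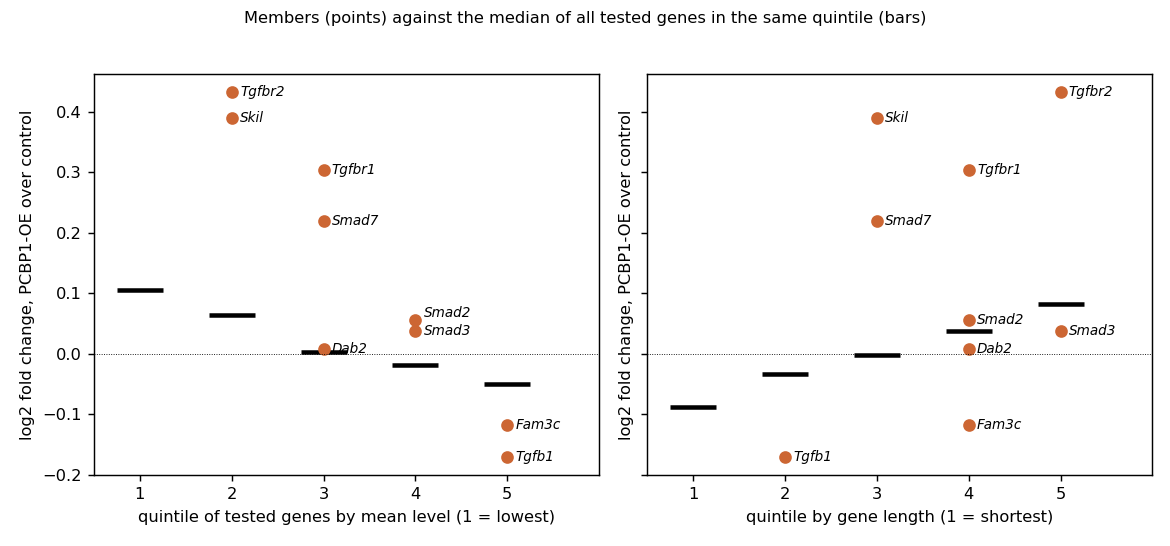
Log2 fold change (vertical axis, PCBP1-OE over control) of the 9 genes (orange points) against the quintile of all tested genes they fall in by mean CPM (left) or by gene length (right), with black bars for the median of all tested genes in each quintile. The bars fall from 0.11 to -0.050 with CPM and rise from -0.088 to 0.082 with length.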

How the data were processed

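Rat PC12 libraries, 3 control and 3 PCBP1-OE, were matched to their groups by their own labels. The deposited table holds raw read counts for each gene. Per the paper's methods the authors cleaned reads with FASTX-Toolkit, aligned them to Rnor_6.0 with TopHat2 (at most 4 mismatches) and counted uniquely mapped reads. The labels name GRCh38, while all gene identifiers are rat Ensembl identifiers. Which program counted them, with what strand setting and gene models, is stated in no source used here, so overlapping genes are uncertain.

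The genes and lists were chosen with earlier results of these data known. edgeR 4.0.16 (R 4.3.3) fitted all genes with TMM scaling, filterByExpr (minimum count 10, minimum total 15) and the quasi-likelihood test, which kept 12624 genes and left out 7985. Intervals use the quasi-likelihood degrees of freedom and are not adjusted for the number of genes tested. Standard errors are the log2 fold change divided by the square root of F. The correlation of deviations from the group means between libraries of the same number was -0.078, -0.051 and -0.043, so the numbers did not pair the libraries. Libraries of the same group varied beyond counting noise (chi-square per gene 4.37 to 12.2). Alternatives used RLE and upper-quartile scaling, no filter, at least 1 CPM in 3 libraries, DESeq2 1.42.0, limma-voom 3.58.1 with and without cyclic loess, a replicate block, and each library left out. The pipeline was also run on simulated data, whose outcome is not given here and is not used as support.

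Named were the 9 genes, every called gene of the lists (at most 8 per list), 2 tested genes of highest CPM per list, and for Dab2 and Fam3c the 3 genes most correlated on log2 CPM (prior count 2). A gene that this rule names is not reported here. List symbols without a match are not analysed here. Promoter windows and gene lengths came from RefSeq tables of GRCr8, matched by symbol, while the counts are on Rnor_6.0.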

Additional observations from a re-analysis of the deposited data

How the results depend on the processing

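The 1193 genes called became 2090 with no filter, 16 with the replicate block and 48 to 2860 with 1 library left out; among the 9 genes, 2 became 1 under upper-quartile scaling, 4 with no filter, 0 with the replicate block, 0 with cyclic loess and 0 to 5 with 1 library left out, and the 14 list genes called became 26 with no filter, 0 with the replicate block and 0 to 32 with 1 library left out. Higher calls were 47.1% of all calls, and 60.5% (655 of 1082) under upper-quartile scaling or 61.8% (595 of 963) with cyclic loess. The replicate numbers did not pair the libraries, so the blocked fit is not read as a weaker effect. Sign changes occurred with 1 library left out for Dab2 (-0.050 to 0.080), Smad5 (-0.033 to 0.10), Acvr1 (-0.056 to 0.013) and Eef1a1 (-0.072 to 2.05e-05), and with cyclic loess for Fn1 (0.043), Vim (0.027) and Eef1a1 (0.084). None of these genes (Dab2, Smad5, Acvr1, Eef1a1, Fn1 and Vim) was called in the analysis as reported. The cause was not tested. The log2 difference of the Smad2 to Smad3 ratio turned from 0.020 to -0.045 without control replicate 1. That of Tgfbr1 to Tgfbr2 turned from -0.17 to 0.070 without control replicate 2 and to 0.0079 without PCBP1-OE replicate 2. These moves were smaller than the larger SD of the log2 ratio within a group. Depth limits the least counted of the 9 genes, Tgfbr2 and Skil, to 117 to 254 counts per library.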
